A study of Mus musculus with 6 samples.

Results

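*Ccna1*, which encodes cyclin A1, was described beside 9 genes of dividing cells in perfused whole mouse lung, and the question was whether *Ccna1* followed the 9. The 10 genes are *Ccna1*, *Ccna2*, *Ccnb1*, *Ccnb2*, *Ccne1*, *Cdk1*, *Mki67*, *Top2a*, *Birc5* and *Mcm2*, taken by their symbols from a count table of 54532 genes. RNA came from lungs of 3 WT C57BL/6J mice and 3 ISM1-/- mice on the same background, all untreated and 2 months old, with 1 library per mouse. The WT mice were bought and the ISM1-/- mice were bred in-house, so an effect of genotype cannot be told apart from one of origin. *Ccna1* was selected on its lower counts in the ISM1-/- libraries, so its difference between genotypes is given as a description with no test. The other 9 were picked for what they do, with earlier results of these data known. Their differences were tested in a fit across all genes.

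Cyclins are short-lived proteins that switch on cyclin-dependent kinases, and each stage of division has its own set. Most genes of S phase and mitosis are transcribed together in dividing cells and are silent in resting cells, so in a tissue where few cells divide, such as the adult lung, their transcripts follow the share of cycling cells. Cyclin A1 is the exception among the A-type cyclins: it is best known from the male germ line, where meiosis needs it, while cyclin A2 serves body cells. In bulk tissue, fewer cells of a type and less RNA per cell cannot be told apart.

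Promoters of mitotic genes are known for pairing CCAAT boxes with the cell cycle genes homology region (CHR), the element through which the DREAM and MuvB complexes act. RefSeq promoter windows (GRCm38.p6), running from 250 bases before the annotated start to 50 after it, were found for 9 of the 10 genes. They were searched on both strands. The CHR was searched as the letters TTTGAA, with the variants TTCGAA and also TTTAAA. The CCAAT box was searched by its own letters, an E2F element as TTCCCGC and also in the form TTGGCGC, and the GC box as GGGCGG. *Ccna1* is shown with 3 of the mitotic genes because its window lacked the element that all the others had. The regions are chr3:55055026-55055305 for *Ccna1*, chr9:70421525-70421804 for *Ccnb2*, chr10:69352883-69353162 for *Cdk1* and chr11:99024160-99024439 for *Top2a*, each read from the minus strand, printed 5′ to 3′ up to base 30 after the start, with CHR and CCAAT matches on either strand in capitals (ATTGG and TTCAAA are matches read on the other strand).
Ccna1: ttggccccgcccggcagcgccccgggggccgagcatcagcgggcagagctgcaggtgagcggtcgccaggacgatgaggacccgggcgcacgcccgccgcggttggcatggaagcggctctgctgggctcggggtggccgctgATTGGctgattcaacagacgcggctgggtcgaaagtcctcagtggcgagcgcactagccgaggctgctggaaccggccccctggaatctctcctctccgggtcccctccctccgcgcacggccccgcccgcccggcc
Ccnb2: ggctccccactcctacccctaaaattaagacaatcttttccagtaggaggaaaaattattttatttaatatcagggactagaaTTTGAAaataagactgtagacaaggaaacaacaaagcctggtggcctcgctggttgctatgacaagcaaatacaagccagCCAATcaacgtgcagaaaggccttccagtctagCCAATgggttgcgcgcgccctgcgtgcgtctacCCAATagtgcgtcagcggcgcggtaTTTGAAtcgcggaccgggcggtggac
Cdk1: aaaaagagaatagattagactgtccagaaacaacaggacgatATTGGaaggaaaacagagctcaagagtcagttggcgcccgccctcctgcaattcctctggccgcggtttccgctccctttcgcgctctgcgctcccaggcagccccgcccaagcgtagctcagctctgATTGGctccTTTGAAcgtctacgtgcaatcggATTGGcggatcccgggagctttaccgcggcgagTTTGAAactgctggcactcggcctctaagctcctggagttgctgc
Top2a: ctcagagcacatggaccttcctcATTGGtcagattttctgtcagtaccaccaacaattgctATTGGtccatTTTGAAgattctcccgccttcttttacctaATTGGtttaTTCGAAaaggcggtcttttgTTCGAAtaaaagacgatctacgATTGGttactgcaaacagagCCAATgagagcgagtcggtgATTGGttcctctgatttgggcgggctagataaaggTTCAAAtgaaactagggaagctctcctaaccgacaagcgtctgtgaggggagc

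A CHR match lay in the windows of 8 of the 8 other genes and was missing from the *Ccna1* window, beside 28.8% of all 32841 mouse windows. *Top2a* held 4 CHR and 6 CCAAT matches, *Cdk1* held 2 and 3, and *Ccnb2* held 2 and 3. The *Ccna1* window held a single CCAAT match, on the opposite strand from base −107 to −103. CCAAT was found in 6 of the 8 other windows, all but those of *Ccne1* and *Birc5*, and in 37.4% of all windows. The E2F element was found in *Ccnb1*, *Cdk1* and *Mki67* and in 6.81% of all windows, and GC boxes were found in all 9 windows and in 35.7% of all. The only overlap between different elements was that of an E2F and a CCAAT match in *Ccnb1*. The GC content was 74% in the *Ccna1* window, 76% in *Ccne1* and 47.7% in *Top2a*, and the counts of matches were not adjusted for it. In a list of 43 other mitotic genes, 31 of the 37 with a window held a CHR match (83.8%), and in a list of 35 replication genes 11 of 28 did (39.3%). A list gene counted if any of its windows matched, while the share over all windows counted each window alone, so the 2 measures differ. A match says only that these letters are there. The *Ccna1* start used by RefSeq, 55055055 on chromosome 3, lies inside the gene span of the count table, which begins further upstream.

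**Figure D1:**
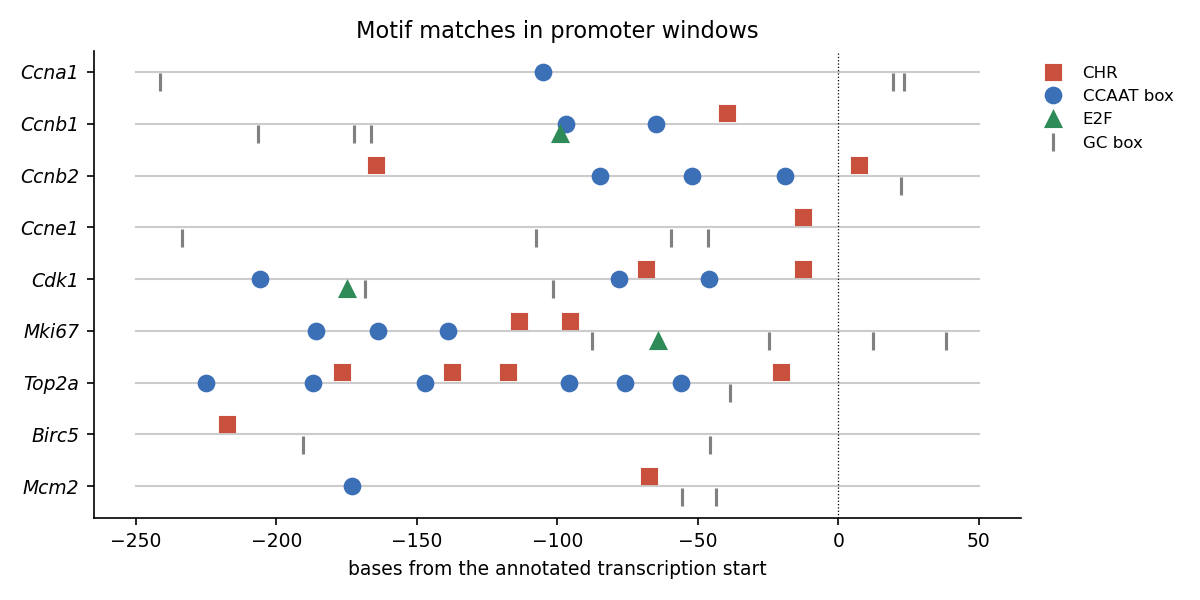
Motif matches in the promoter windows of *Ccna1* and 8 proliferation genes, one row per gene; the horizontal axis is the distance in bases from the annotated transcription start, and symbols mark CHR (squares), CCAAT box (circles), E2F (triangles) and GC box (bars) matches on either strand. Each row but that of *Ccna1* holds at least 1 square.

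The 6 libraries held 37606133 to 42345042 counts on genes. Genes reaching 0.5 CPM (counts scaled to a common library size) in at least 1 library, 18689 of 54532, were tested with edgeR's quasi-likelihood test and Benjamini-Hochberg adjustment, and a gene was called at an adjusted p under 0.1. All 10 genes passed this filter. The fit called 882 genes (4.72% of those tested), 624 lower and 258 higher in ISM1-/-, and the median log2 fold change over all genes was 0.0043. *Ism1*, the targeted gene, averaged 78.9 ± 2.88 CPM (SD, n = 3) in WT. Libraries labelled ISM1-/- averaged 69.1 ± 5.72 CPM (SD, n = 3) and so kept 87.6% of its transcript (log2 fold change −0.19, adjusted p = 0.217), and genotypes rest on the labels. Markers of the labelled tissue were present: 10 of 10 lung epithelium and 8 of 8 lung endothelium genes passed the filter. The lung endothelium sums were 3813 to 4288 CPM. The lung epithelium sums were 43370 to 46112 CPM in WT and 36341 to 39127 CPM in ISM1-/-, without overlap. Of these 10 genes 2 were called lower (background 3.34%), with a median log2 fold change of −0.05.

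*Ccna1* (ENSMUSG00000027793, GRCm38, chromosome 3, 55045469 to 55055501, minus strand) is annotated in GENCODE M21 with 6 transcripts of up to 9 exons. The WT libraries held 74, 112 and 67 *Ccna1* counts, and the ISM1-/- libraries held 28, 25 and 36. Scaled by library, these were 1.96, 2.70 and 1.73 CPM in WT and 0.659, 0.659 and 0.923 CPM in ISM1-/-. Every WT library was above every ISM1-/- library, with a gap between 0.923 and 1.73 CPM. The WT mean was 2.13 ± 0.505 CPM (SD, n = 3) and the ISM1-/- mean 0.747 ± 0.152 CPM (SD, n = 3), or 35.0% of WT, with a log2 fold change of −1.51 (SE 0.256). Only 63 of the 18689 genes tested had a lower log2 fold change, and 360 genes (1.93%) moved by 2-fold or more in either direction. The value rests on 25 to 112 reads per library, and it lay between −1.69 and −1.30 on the log2 scale when single libraries were omitted. *4931419H13Rik*, an antisense transcript that overlaps *Ccna1* by 260 bases, had a mean of 0.667 counts per library.

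Of the other 9 genes, 0 were called (background 4.72%), and in 0 of 9 did the genotypes separate without overlap (background 21.6%). By edgeR and by DESeq2, 0 of the 9 had an unadjusted p under 0.05, beside 2949 and 2671 of all 18689 genes. Adding a 2-fold minimum to the test left 106 genes called (0.567%), 53 in each direction (0.284% each), none of them among the 9. Their adjusted p values lay between 0.639 and 0.9998, and their median log2 fold change was −0.0030.

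Among the cyclins, *Ccna2* (cyclin A2, partner of Cdk2 and Cdk1 in S phase and at entry into mitosis; chromosome 3, 36564865 to 36572150) had 4.67, 5.28 and 7.76 CPM in WT and 7.41, 7.12 and 6.02 CPM in ISM1-/-. Its ISM1-/- libraries all lay between the second and the highest WT library, above the WT mean, while those of *Ccna1* lay below it. The log2 fold change was 0.22 (SE 0.184, adjusted p = 0.639), with a 95% interval of the fold from 0.873 to 1.54. *Ccna2* overlaps *Exosc9*, on the opposite strand, by 863 bases, and *Exosc9* had a mean of 755 counts, so its counts are uncertain without knowing whether strand was used. *Ccnb1* (cyclin B1, which drives entry into mitosis with Cdk1; chromosome 13, 100778650 to 100786570) had 1.83, 2.26 and 3.47 CPM in WT and 2.28, 2.56 and 2.20 CPM in ISM1-/-. The WT values spanned those of ISM1-/-, and the log2 fold change was −0.10 (SE 0.235, adjusted p = 0.885, interval of the fold 0.647 to 1.34).

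*Ccnb2* (cyclin B2, a second mitotic partner of Cdk1; chromosome 9, 70407692 to 70421547) had 3.13, 3.49 and 3.98 CPM in WT and 3.65, 3.82 and 2.74 CPM in ISM1-/-. The highest value was in WT and the lowest in ISM1-/-, with the rest intermixed, at a log2 fold change of −0.05 (SE 0.173, adjusted p = 0.924). *Ccne1* (cyclin E1, which starts S phase with Cdk2; chromosome 7, 38097984 to 38107534) had 1.14, 1.28 and 1.71 CPM in WT and 1.39, 1.71 and 1.03 CPM in ISM1-/-. At 40 to 66 reads per library it was measured about as deeply as *Ccna1*, and its mean levels were 1.37 ± 0.295 and 1.38 ± 0.344 CPM (SD, n = 3). Its log2 fold change was −0.00021 (SE 0.257), with a 95% interval from −0.57 to 0.57.

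*Cdk1*, the kinase that starts mitosis (chromosome 10, 69335146 to 69352938), had 3.71, 2.82 and 4.03 CPM in WT and 3.55, 3.27 and 2.79 CPM in ISM1-/-. The groups overlapped, and the log2 fold change was −0.13 (SE 0.178, adjusted p = 0.789), the lowest of the 9.

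The markers by which dividing cells are usually recognised were better counted, at 602 to 1603 reads per library. *Mki67* (the Ki-67 antigen, which coats mitotic chromosomes; chromosome 7, 135689784 to 135716361) had 25.6, 25.9 and 39.4 CPM in WT and 37.7, 31.7 and 28.7 CPM in ISM1-/-. *Top2a* (topoisomerase II alpha, which untangles sister chromatids; chromosome 11, 98992943 to 99024189) had 16.2, 14.5 and 25.7 CPM in WT and 22.9, 19.7 and 17.4 CPM in ISM1-/-. In both genes WT replicate 3 was the highest library and the other WT libraries were the lowest, so that the ISM1-/- libraries lay inside the WT range. The log2 fold changes were 0.11 for *Mki67* (SE 0.163, adjusted p = 0.812) and 0.09 for *Top2a* (SE 0.192, adjusted p = 0.873).

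*Birc5* (survivin, a subunit of the chromosomal passenger complex; chromosome 11, 117849251 to 117855743, plus strand) had 2.94, 3.01 and 4.42 CPM in WT and 4.02, 3.27 and 3.05 CPM in ISM1-/-, a log2 fold change of −0.0030 (SE 0.197, adjusted p = 0.996). *Mcm2* (a subunit of the replicative helicase, loaded on DNA before S phase; chromosome 6, 88883474 to 88898780) had 17.6, 18.4 and 21.7 CPM in WT and 20.0, 22.2 and 14.7 CPM in ISM1-/-. Its log2 fold change was −0.02 (SE 0.143, adjusted p = 0.967), the most precise of the 9, with a 95% interval of the log2 fold change from −0.34 to 0.30. The lowest bound among the 9 intervals was −0.63, for *Ccnb1*. *Ccna1*, at −1.51 (SE 0.256), was selected on its low value, so these intervals are no test of its difference from the 9.

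**Figure D2:**
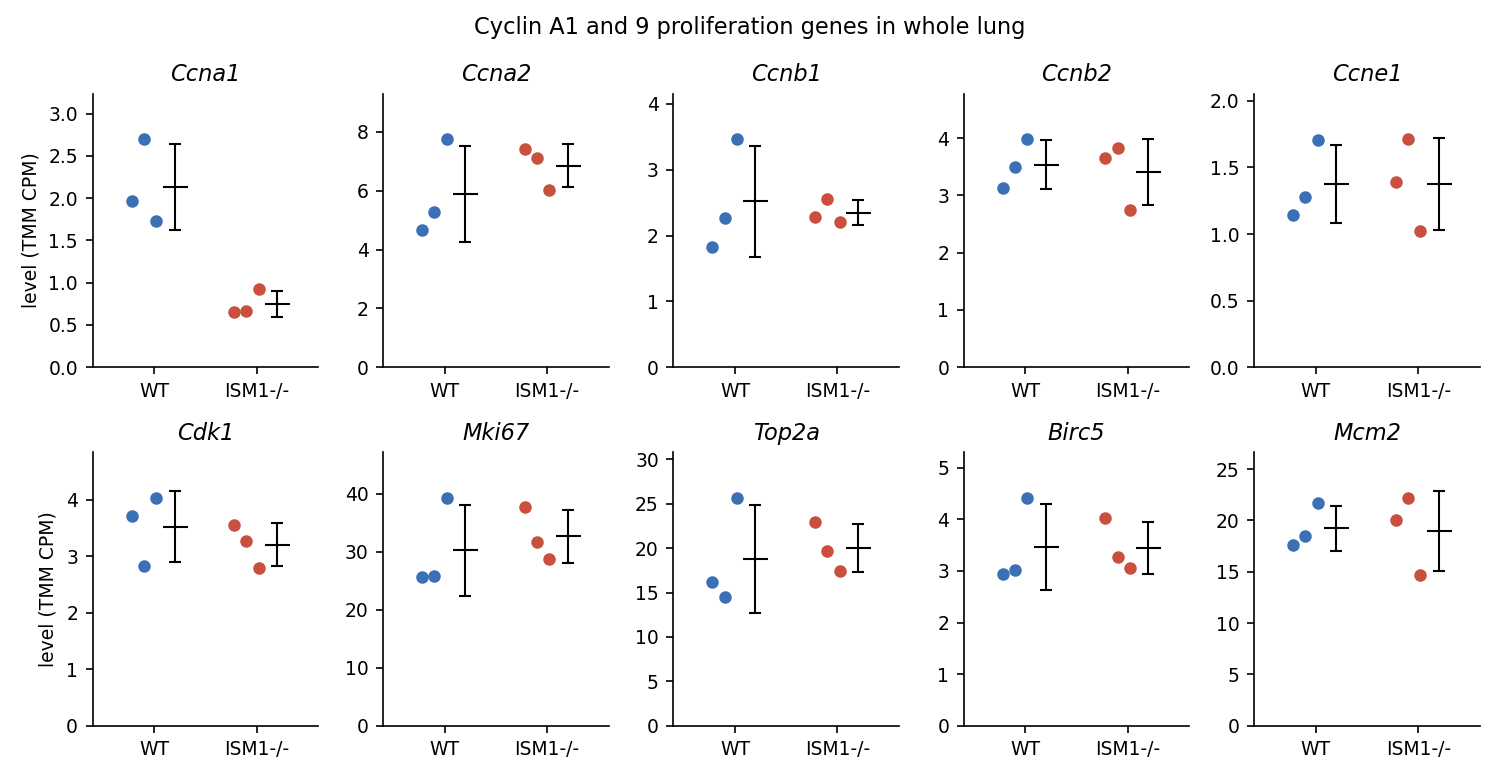
Level in TMM-scaled CPM (vertical axis, from 0) of *Ccna1* and the 9 proliferation genes in each WT (blue) and ISM1-/- (red) library; the horizontal bar and whiskers give the mean ± SD of 3 libraries. The genotypes are separate for *Ccna1*, at 1.73 CPM and above in WT and 0.923 CPM and below in ISM1-/-, and overlap for the other 9 genes.

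The 9 genes shared the mice in which they were highest in WT and lowest in ISM1-/-, and *Ccna1* had another order. Each gene was set against its own mean over the 6 libraries on the log2 CPM scale. The median of the 9 genes lay at −0.23, −0.18 and 0.33 in the WT libraries and at 0.09, 0.10 and −0.16 in the ISM1-/- libraries, while *Ccna1* lay at 0.63, 1.08 and 0.46 in WT and at −0.87, −0.87 and −0.42 in ISM1-/-. WT replicate 3 was the highest WT library for 9 of the 9 genes (32.4% of all genes tested) but the lowest WT library for *Ccna1*. ISM1-/- replicate 3 was the lowest ISM1-/- library for 9 of the 9 genes (39.1% of all genes) but the highest for *Ccna1*. In WT replicate 3 over WT replicate 1, the 9 genes had a log2 ratio between 0.12 and 0.90, with a median of 0.58, while *Ccna1* had −0.18 and the median gene 0.0033. In ISM1-/- replicate 1 over replicate 3 the median of the 9 was 0.39, with all 9 above 0, while *Ccna1* had −0.46. Between the other WT libraries, and between ISM1-/- replicates 1 and 2, the 9 went both ways: in WT replicate 2 over replicate 1 their log2 ratios ran from −0.39 to 0.30, and in ISM1-/- replicate 1 over replicate 2 from −0.29 to 0.30, with 5 of the 9 above 0. These orders were seen first and counted after, and carry no test. For *Ccna1* they rest on few reads: 67 beside 74 in WT replicates 3 and 1, and 28, 25 and 36 in ISM1-/-. Counting error was not separated from these small differences, so the order of *Ccna1* within each genotype is uncertain.

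The root mean square (RMS) difference of centred log2 CPM over the 6 libraries was used as the measure of likeness, with 0 meaning the same pattern. Each of the 9 genes lay between 0.101 (*Birc5*) and 0.185 (*Cdk1*) from the median of the remaining ones, and *Ccna1* lay at 0.845 from the median of the 9. Seen from *Ccna1*, the nearest of the 9 was *Cdk1* (0.782), ranked 9449 among the 15875 genes averaging 1 CPM or more, and the farthest was *Ccna2* (0.947), ranked 14986. The median gene lay at 0.769. The genotype difference for which *Ccna1* was selected enters its distances, so a gene with a fold change near 1 has to lie far from it, and the ranks are a description. The highest level over the lowest among the 6 libraries was 4.10-fold for *Ccna1* and 1.44-fold to 1.89-fold for the 9.

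**Figure D3:**
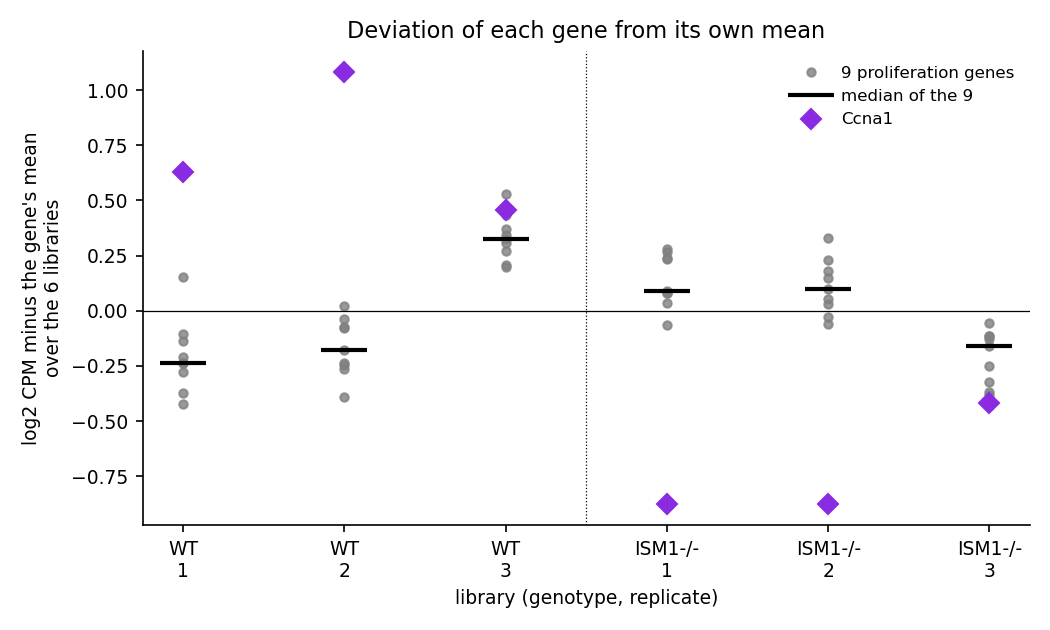
Deviation of log2 CPM from each gene's own mean (vertical axis) in the 6 libraries (horizontal axis) for the 9 proliferation genes (grey points, with their median as a bar) and for *Ccna1* (diamonds). All 9 are above 0 in WT replicate 3 (median 0.33) and 8 of the 9 are below 0 in WT replicate 1 (median −0.23), whereas *Ccna1* is above 0 in all WT libraries and below 0 in all ISM1-/- libraries.

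With WT replicate 3 left out, the median log2 fold change of the 9 was 0.19 in place of −0.0030, with 0.46 for *Ccna2* (adjusted p = 0.221), 0.35 for *Mki67* (adjusted p = 0.219) and 0.39 for *Top2a* (adjusted p = 0.212). In that fit 3 of the 9 had an unadjusted p under 0.05, beside 2466 of all 18597 genes tested. Of the 9, 0 were called, and *Ccna1* was at −1.64. With any other library left out, the median of the 9 stayed between −0.14 and 0.13. None of the 9 then had an unadjusted p under 0.05, beside 2144 to 3488 of all genes.

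Compared per length, *Ccna1* was among the weaker of the 10 genes in WT and the weakest in ISM1-/-. On the scale of the deposited FPKM (CPM per kilobase), the mean level in WT was 14.5 for *Mcm2*, 11.1 for *Top2a*, 5.70 for *Mki67*, 3.48 for *Ccna2*, 2.89 for *Cdk1* and 2.31 for *Ccnb2*. *Ccna1* followed at 1.87 ± 0.439 FPKM (SD, n = 3), next to *Ccnb1* at 1.67, *Birc5* at 1.62 and *Ccne1* at 1.58 FPKM, neighbours that lay within 1 SD of it. In ISM1-/-, *Ccna1* was at 0.650 ± 0.125 FPKM (SD, n = 3), below all 9. The lengths behind these FPKM values, such as 1143 bases for *Ccna1* and 1333 for *Mcm2*, are shorter than the gene lengths listed in the same table (1835 and 6956) for all of the 10 but *Ccnb2*, and the order depends on which is used. Per kilobase of the listed length, the WT mean of *Ccna1* was 1.16 CPM, between *Ccna2* at 1.45 and *Birc5* at 1.02, and its ISM1-/- mean of 0.407 CPM was again the lowest of the 10.

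The wider cell cycle programme was read through lists of genes by function. Of 35 replication genes, such as the other MCM subunits and the DNA polymerases, 0 were called (background 4.72%). An unadjusted p under 0.05 was found for 0 of the 35 by edgeR and DESeq2 (2949 and 2671 of all 18689 genes). The log2 fold change had a median of 0.02. It ran from −0.26 for *Dtl*, a subunit of a ubiquitin ligase for replication factors (adjusted p = 0.547), to 0.27 for *Rfc4*, part of the clamp loader (adjusted p = 0.374). Of 43 mitosis genes, 1 was called (background 4.72%) and the median was 0.07, with 28 above 0 and 15 below. An unadjusted p under 0.05 was found for 5 of the 43 by edgeR and 4 by DESeq2. Without WT replicate 3 it was found for 12 by edgeR, beside 2466 of all 18597 genes. WT replicate 3 was the highest WT library for 30 of the 35 and for 34 of the 43, the same order as in the 9 genes.

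The mitosis gene called was *Nek2*, a kinase that separates centrosomes, which had 17.5, 22.1 and 19.1 CPM in WT and 13.1, 14.2 and 14.6 CPM in ISM1-/- (log2 fold change −0.49, SE 0.0990, adjusted p = 0.0375). The genotypes did not overlap, and *Nek2* fell. Its adjusted p was 0.145, 0.103, 0.139 and 0.127 without WT replicate 2, WT replicate 3, ISM1-/- replicate 1 and ISM1-/- replicate 2, with log2 fold changes from −0.50 to −0.39. At the other end stood *Ndc80*, which ties kinetochores to microtubules, with 1.94, 1.59 and 2.38 CPM in WT and 2.92, 2.79 and 3.28 CPM in ISM1-/- (log2 fold change 0.61, SE 0.190, adjusted p = 0.142). Without WT replicate 3, *Nek2* was not called and *Cenpf*, a kinetochore protein, was (log2 fold change 0.67, adjusted p = 0.0826).

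Of 21 regulators of proliferation genes (E2F, RB, MuvB and MYB family members), 0 were called (background 4.72%), with a median of 0.01 and a range from −0.22 for *E2f3* (adjusted p = 0.262) to 0.33 for *Lin9* (adjusted p = 0.227). Both ends belong to the machinery that acts on proliferation promoters, *E2f3* as an activator and *Lin9* as a MuvB subunit. Of 8 CDK inhibitor genes, 0 were called (background 4.72%), from −0.10 for *Cdkn1c* (adjusted p = 0.460) to 0.32 for *Cdkn2d* (adjusted p = 0.1204) among those averaging 1 CPM or more, and *Cdkn2d* passed in DESeq2 (adjusted p = 0.0783).

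Among 21 other cyclin genes, of which 20 were tested, 1 fell and 1 rose (background 3.34% lower and 1.38% higher). *Ccno*, cyclin O, which is known for its part in making multiciliated cells rather than in division, had 3.85, 4.75 and 3.59 CPM in WT and 2.23, 2.64 and 2.15 CPM in ISM1-/- (log2 fold change −0.80, SE 0.169, adjusted p = 0.0440). It was the lowest of the cyclins after *Ccna1*, with no overlap, and its adjusted p was 0.173, 0.159 and 0.104 without WT replicate 2, ISM1-/- replicate 1 and ISM1-/- replicate 2. *Ccng2*, cyclin G2, known from resting and arrested cells, rose from 46.6 ± 2.69 to 56.0 ± 3.48 CPM (SD, n = 3; log2 fold change 0.27, SE 0.0715, adjusted p = 0.0937). It was called only when WT replicate 1 was the library left out, with adjusted p from 0.106 to 0.310 without any of the other 5. The D-type cyclins, which carry growth signals to the cell cycle, had log2 fold changes of 0.03 for *Ccnd1*, 0.04 for *Ccnd2* and 0.0049 for *Ccnd3* (adjusted p = 0.866, 0.809 and 0.987).

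Among 20 kinases of the CDK family and enzymes that switch them, 2 rose and 0 fell (background 1.38% higher and 3.34% lower). *Cdk19*, a kinase of the Mediator complex that acts in transcription, went from 77.4, 73.0 and 76.8 CPM in WT to 94.2, 94.8 and 98.7 CPM in ISM1-/- (log2 fold change 0.34, SE 0.0561, adjusted p = 0.0199; 0.112 without WT replicate 2). *Cdk6*, the partner of D-type cyclins, rose from 84.7 ± 3.76 to 99.7 ± 4.40 CPM (SD, n = 3; log2 fold change 0.24, SE 0.0611, adjusted p = 0.0817). The adjusted p of *Cdk6* lay between 0.156 and 0.273 without WT replicate 2, WT replicate 3, ISM1-/- replicate 1 or ISM1-/- replicate 2. The lowest of the list was *Cdk20* at −0.24 (adjusted p = 0.318).

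**Figure D4:**
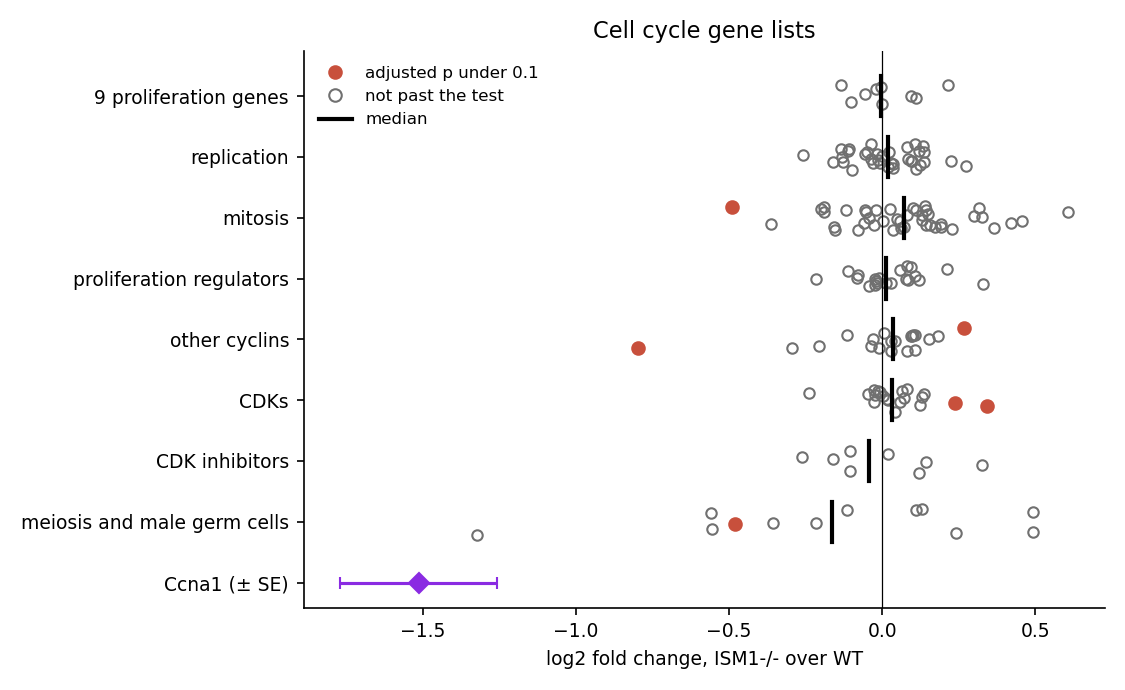
Log2 fold change, ISM1-/- over WT (horizontal axis), of each tested gene in 8 cell cycle lists (rows); filled points passed an adjusted p under 0.1, open points did not, and a black bar marks the list's median. The medians lie between −0.16 and 0.07, and the lowest single gene, *Spo11*, lies at −1.32. *Ccna1* (diamond, ± SE, in no list) lies at −1.51 and was selected on its low value.

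Because cyclin A1 is known from male meiosis, 31 genes of meiosis and male germ cells were read too. Of these, 19 stayed under the filter, and *Tnp1*, *Tnp2*, *Prm2*, *Spata16*, *Piwil1*, *Acrv1* and *Syce3* had 0 counts in all 6 libraries. Of the 12 tested, 1 fell (background 3.34% lower): *Rec8*, a meiotic cohesin subunit, had 14.1, 12.5 and 13.2 CPM in WT and 11.2, 8.49 and 8.74 CPM in ISM1-/- (log2 fold change −0.48, SE 0.119, adjusted p = 0.0710). It was called only without ISM1-/- replicate 1 among the 6 fits that left out a library, with adjusted p from 0.107 to 0.221 in the others. *Ybx2* was at −0.56 (adjusted p = 0.205) and *Dmc1*, the meiotic recombinase, at 0.13 (adjusted p = 0.892). The median of the 12 was −0.16, with 5 above 0 and 7 below. In 4 of the 12 the genotypes did not overlap (background 21.6%). The summed level of the list, *Rec8* included, was 45.8 to 47.4 CPM in WT and 37.0 to 40.2 CPM in ISM1-/-. The lowest point of the list, *Spo11* at −1.32 (adjusted p = 0.399), was singled out after its values were seen and rests on 2.22 CPM in WT replicate 3 beside 0.282 to 0.611 CPM in the other 5 libraries.

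The genes whose pattern over the 6 libraries was most like that of *Ccna1* were *Bves* (RMS 0.280), *Lgals12* (0.281), *Penk* (0.285), *6430531B16Rik* (0.308), *4930444F02Rik* (0.316), *Dmrt2* (0.320), *Tmem232* (0.335) and *Pi16* (0.338). All 8 were lower in ISM1-/- without overlap, as closeness to *Ccna1* over both genotypes requires. *Bves*, a membrane protein of muscle and epithelium, had 112, 92 and 81 counts in WT and 35, 36 and 49 in ISM1-/-. *Lgals12*, a galectin of adipocyte lipid droplets, had 218, 264 and 236 counts in WT and 101, 111 and 147 in ISM1-/-. *Penk*, the precursor of enkephalins, had 93, 104 and 95 counts in WT and 46, 42 and 58 in ISM1-/-. Like *Ccna1*, all 3 were highest among the ISM1-/- libraries in replicate 3, but *Bves* was highest in WT replicate 1 and *Ccna1* in WT replicate 2. Of the others, *Dmrt2* (42, 36 and 34 counts in ISM1-/-) and *Pi16* (671, 740 and 709) were not highest in ISM1-/- replicate 3.

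With the difference between genotypes taken out, by centring within each genotype, the 8 nearest genes were *Gm42929*, *Gm5857*, *Gm43389*, *Gm44033*, *Sobp*, *Fam228b*, *Tmc5* and *Atf3*, at RMS distances of 0.0559 to 0.0932. None of these was among the 8 found from the whole pattern. The pattern left within genotypes rests on 25 to 112 *Ccna1* reads per library, so counting error is part of it. Some genes must be nearest to any pattern, and the ranking carries no test. *Atf3*, a stress-response transcription factor and the best counted of them, had 416, 524 and 329 counts in WT and 319, 318 and 404 in ISM1-/-. WT replicate 2 was thus the highest and WT replicate 3 the lowest WT library, as in *Ccna1*, without separation of the genotypes.

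Markers of other cells also differed between these libraries, and their values stand here beside *Ccna1*. Of 16 adipocyte genes, 14 fell (background 3.34% lower), with a median log2 fold change of −1.43. Their summed level was 353, 295 and 348 CPM in WT and 120, 145 and 209 CPM in ISM1-/-, in which replicate 3 was the highest ISM1-/- library, as for *Ccna1*, while WT replicate 2, the highest for *Ccna1*, was the lowest in WT. *Adipoq*, the defining secreted protein of fat cells, went from 12.4 ± 2.23 to 3.76 ± 2.39 CPM (SD, n = 3; adjusted p = 0.0343). The number of adipocyte genes called was 6, 9, 5 and 4 without WT replicate 2, WT replicate 3, ISM1-/- replicate 1 and ISM1-/- replicate 2. Over all genes the number called was 150, 341, 247 and 261 in these 4 fits, beside 882 with every library. Without WT replicate 1 and ISM1-/- replicate 3, 11 and 14 adipocyte genes were called (671 and 1470 of all genes).

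Of 8 genes of ciliated cells, 6 fell (background 3.34% lower), with a median of −0.45 and summed levels of 445, 496 and 473 CPM in WT against 322, 333 and 383 CPM in ISM1-/-. WT replicate 2 was the highest WT library and ISM1-/- replicate 3 the highest ISM1-/- library in these sums, as for *Ccna1*, while the lowest WT library was replicate 1 and not replicate 3, and the sums differed by less than 2-fold. The number called was 2 without WT replicate 2, WT replicate 3 or ISM1-/- replicate 1 (150, 341 and 247 of all genes). It was 3 without ISM1-/- replicate 2 (261 of all genes). Without WT replicate 1 and ISM1-/- replicate 3 it was 5 and 8 (671 and 1470 of all genes). Of 14 cardiomyocyte genes, 1 fell (background 3.34% lower), with a median of −1.11, and all 14 were highest in WT replicate 1, whose sum was 1751 CPM beside 314 to 688 CPM in the other libraries. Without WT replicate 1 that median was −0.51 and 0 cardiomyocyte genes were called (671 of all genes), whereas *Ccna1* was at −1.57. Without ISM1-/- replicate 3, 5 cardiomyocyte genes were called (1470 of all genes). Of 8 B cell genes, 4 rose, with a median of 0.59 (background 1.38% higher), and their sum was 297, 233 and 169 CPM in ISM1-/- beside 147 to 165 CPM in WT. Within ISM1-/-, the B cell sum was highest in replicate 1 and lowest in replicate 3. So was the sum of the 9 proliferation genes (103, 95.4 and 78.6 CPM). Taken singly, 5 of the 9 were highest among the ISM1-/- libraries in replicate 1, and 9 of the 9 were lowest in replicate 3. The median deviation of the 9 was 0.09 in ISM1-/- replicate 1 and 0.10 in replicate 2. The number of B cell genes called was 8 without ISM1-/- replicate 3 and 0 without any other library. Over all genes it was 1470 without ISM1-/- replicate 3 and 150 to 671 without another library. The reason for the change in the B cell number was not tested.

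Of 6 neutrophil genes tested, 4 rose (background 1.38% higher), with a median of 1.05, and their sum was 129, 106 and 74.2 CPM in ISM1-/- beside 44.4 to 58.7 CPM in WT. The number called was 2 without WT replicate 1, WT replicate 2, ISM1-/- replicate 1 or ISM1-/- replicate 2 (671, 150, 247 and 261 of all genes). Without WT replicate 3 and ISM1-/- replicate 3 it was 4 and 5 (341 and 1470 of all genes). Of 8 T and NK cell genes, 2 rose, with a median of 0.51, and their sum was 108, 81.3 and 74.1 CPM in ISM1-/- beside 45.3 to 68.7 CPM in WT. ISM1-/- replicate 1 was the highest ISM1-/- library for 8 of these 8 genes and replicate 3 the lowest for 7, beside 5 and 9 of the 9 proliferation genes. The number of T and NK cell genes called was 0 without WT replicate 2, WT replicate 3, ISM1-/- replicate 1 or ISM1-/- replicate 2 (150, 341, 247 and 261 of all genes). It was 3 without WT replicate 1 or ISM1-/- replicate 3 (671 and 1470 of all genes). The part of these cell types in the level of *Ccna1* or of the proliferation genes was not tested.

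**Figure D5:**
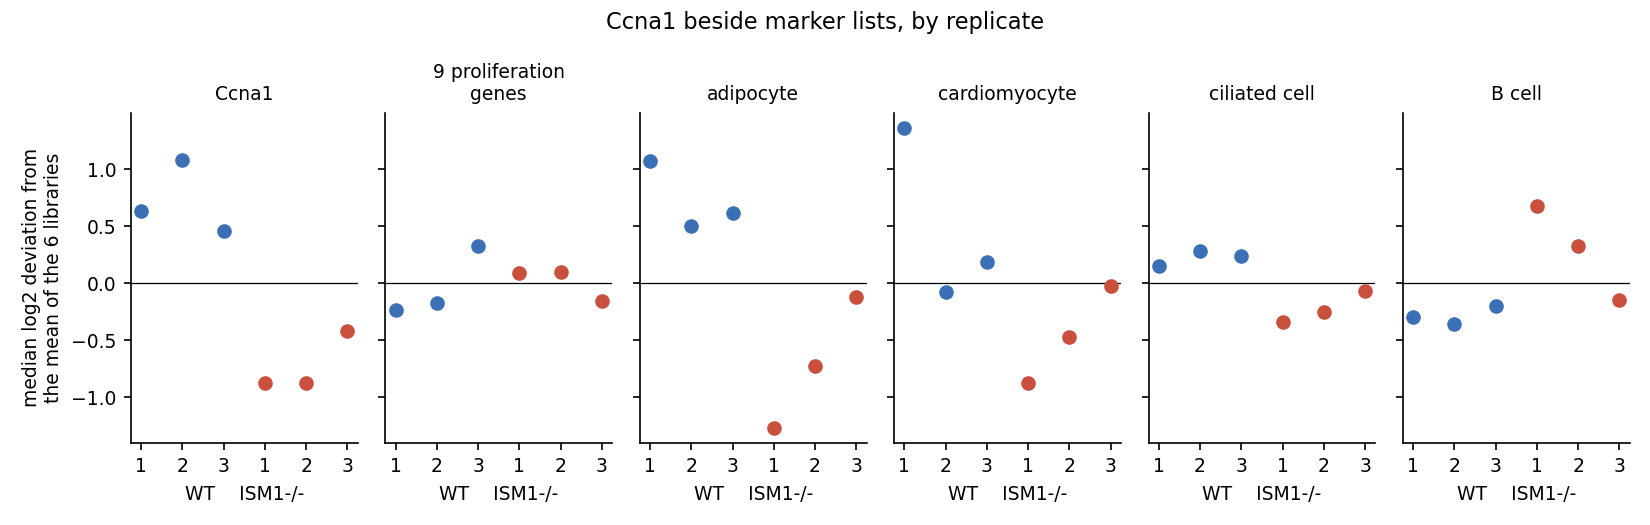
Deviation from the mean of the 6 libraries on the log2 CPM scale (vertical axis) for *Ccna1* and the median deviation for the 9 proliferation genes and 4 marker lists, by replicate number of the WT (blue) and ISM1-/- (red) libraries (horizontal axis). The adipocyte list separates the genotypes as *Ccna1* does (0.50 and above in WT, −0.12 and below in ISM1-/-). The ciliated cell list does so over a smaller range (0.15 and above, −0.06 and below). The B cell list separates them in the other direction (−0.20 and below in WT, −0.15 and above in ISM1-/-). The cardiomyocyte list and the 9 proliferation genes do not separate them.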

How the data were processed

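Whole lungs of 3 WT and 3 ISM1-/- mice were compared, with groups taken from the labels and 1 library per mouse. The authors enriched poly-A RNA, made directional libraries, mapped read pairs to GRCm38 (mm10) with STAR and deposited raw counts per gene. They also deposited FPKM computed from these counts, and CASAVA is also named in the submitters' processing notes. The counting program, annotation release and strand setting are not given in the sources used here. The gene length behind the deposited FPKM equals the length listed in the table for *Ccnb2* and is shorter for the other 9 of the 10 genes.

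Counts were scaled by TMM in edgeR 4.0.16 (R 4.3.3), filtered at 0.5 CPM in at least 1 library, and tested with the quasi-likelihood test (glmQLFit, glmQLFTest) without covariates, with Benjamini-Hochberg adjustment over the 18689 genes tested. Log2 fold changes are ISM1-/- over WT. Likeness between genes used log2 CPM with a prior count of 2. The scripts were tested on simulated counts. The 10 genes, the lists and the tests were chosen with earlier results of these data known. Named genes are the 10, *Ism1*, genes overlapping them, list genes with an adjusted p under 0.1, the highest and lowest of each cell cycle list among genes averaging 1 CPM or more, and the 8 genes most like *Ccna1* over the whole pattern and within genotypes. *Cenpf*, *Spo11* and the D-type cyclins were named after their values were seen, as were *Adipoq* and the marker lists shown. *Ccne2* is in both the replication and the cyclin list.

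Alternatives were RLE size factors, other filters on low counts, DESeq2 1.42.0, limma 3.58.1 on log2(FPKM + 0.1) and log2(FPKM + 1), a replicate block, other thresholds and the omission of each library. Total counts were 37606133 to 42345042 per library. SD and SE are between mice, and at the 25 to 112 reads of *Ccna1* counting error is part of them.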

Additional observations from a re-analysis of the deposited data

How the results depend on the processing

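The log2 fold change of *Ccna1* kept its sign in all 13 alternatives and moved by more than the spread between replicates in 1, log2(FPKM + 1) with limma, where it was −0.79, since a pseudocount of 1 is near its level. It was −1.38 on log2(FPKM + 0.1), −1.51 in DESeq2, and −1.69 to −1.30 with each library left out. *Ccna1* is under a mean of 2 CPM, so the filter on protein-coding genes above that mean gave it no value. The median of the 9 proliferation genes lay between −0.14 and 0.19, both ends from leaving out a library, and 0 of the 9 were called in any alternative. Replication genes called were 0 in all alternatives, and mitosis genes called were 2 without a filter on low counts, 0 with a 2-fold minimum and 0 to 1 with each library left out. Of all genes, 882 were called, 1632 without a filter, 455 at an adjusted p of 0.05 (113 higher, 342 lower), 106 with a 2-fold minimum (53 each way), and 150 to 1470 with each library left out: 150 without WT replicate 2, 341 without WT replicate 3, 247, 261 and 1470 without ISM1-/- replicates 1, 2 and 3. The cause of these shifts was not tested. Of 348 further values of single genes, 320 kept their side of the threshold, 26 lost the call, 2 gained it and 0 changed sign with a call.

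The replicate numbers name different mice, and deviations of mice with the same number correlated at −0.0405, 0.031 and 0.00101, so the numbers do not pair the samples. The replicate block gave 1105 genes called, −1.497 for *Ccna1*, −0.0019 for the median of the 9, 0 replication genes and 1 mitosis gene. Depth limits *Ccna1*, *Ccne1* and *Ccnb1* most, at 25 to 134 reads per library.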
